A study of Mus musculus with 8 samples.

Results

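Matrix metalloproteinases (MMPs), the related ADAM and ADAMTS proteases and the tissue inhibitors of metalloproteinases (TIMPs) were followed in NMuMG cells after knockdown of Klf4 and treatment with TGFβ. The family was taken by gene symbol, as every gene named Mmp, Timp, Adam or Adamts followed by a number and measured by a probe set with a single symbol, with 1 ADAM gene left out. A gene with several probe sets was represented by its brightest one. The rule gave 77 of the 19937 genes measured: 22 Mmp, 4 Timp, 18 Adamts and 33 Adam genes. NMuMG is an untransformed epithelial line from the mouse mammary gland that undergoes epithelial to mesenchymal transition (EMT) under TGFβ. RNA was measured on 8 Affymetrix whole-transcript arrays, with 2 in each of 4 groups. These were Klf4 siRNA with TGFβ (siKlf4 + TGFβ), control siRNA with TGFβ (siControl + TGFβ), Klf4 siRNA alone (siKlf4) and control siRNA alone (siControl). TGFβ was given at 2 ng/ml for 2 days. Transfection with an siRNA was common to all 4 groups, so no array shows cells without it. An siRNA lowers a transcript for a limited time and does not delete the gene, and whether replicates stem from independent transfections is not stated. The p-values below therefore reflect variation among these arrays only, possibly technical, and the number of arrays limits their precision.

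MMPs are zinc-dependent proteases that are made as inactive proforms and cut collagens, laminins, fibronectin and other matrix proteins. Most are secreted, while the membrane-type members act at the cell surface and can activate other MMPs. ADAMs sit in the membrane. Those with protease activity release the outer parts of growth factors, receptors and adhesion proteins, a process called shedding. ADAMTS proteases are secreted and cut proteoglycans, procollagens and other matrix proteins. TIMPs bind the active site of these enzymes and block it. In EMT and in mammary gland remodelling, these proteases are known for breaking down basement membrane and for shedding cell adhesion proteins.

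Of the 77 genes, 48 had a promoter in the RefSeq table (build GRCm38.p6), which gives 250 bases before and 50 after each start. On chromosome 9, 10 of the Mmp genes are neighbours, in the order Mmp13, Mmp12, Mmp1b, Mmp3, Mmp1a, Mmp10, Mmp8, Mmp27, Mmp20 and Mmp7. The AP-1 motif, searched as TGAGTCA and TGACTCA so that both strands are covered, was found in the promoters of 7 of these 10 and in those of 3 other genes, Adam19, Adam1b and Adam29. It was in 18.9% of the 53 promoters of the family and in 5.2% of all 32851 promoters of this length. The CACCC box, the core letters bound by Krüppel-like factors, searched as CACCC and GGGTG, was in 77.4% of the family's promoters and in 57.5% of all. The stretches below belong to the genes of the cluster that moved with Klf4 siRNA or TGFβ (Mmp10, Mmp13 and Mmp12), to Mmp3, a cluster gene near background on every array, and to Mmp14, which moved and lies on another chromosome. All are on the plus strand, and capitals mark AP-1 motifs and CACCC boxes.
Mmp10, chr9:7502242-7502321: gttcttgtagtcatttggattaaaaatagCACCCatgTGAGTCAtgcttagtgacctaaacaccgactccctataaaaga
Mmp13, chr9:7272414-7272493: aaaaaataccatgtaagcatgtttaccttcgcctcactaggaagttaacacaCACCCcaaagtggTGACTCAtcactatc
Mmp12, chr9:7347274-7347353: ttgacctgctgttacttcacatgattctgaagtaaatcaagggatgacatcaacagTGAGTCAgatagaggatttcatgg
Mmp3, chr9:7445712-7445801: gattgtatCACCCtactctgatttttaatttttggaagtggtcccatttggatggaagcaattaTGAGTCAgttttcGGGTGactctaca
Mmp14, chr14:54431358-54431437: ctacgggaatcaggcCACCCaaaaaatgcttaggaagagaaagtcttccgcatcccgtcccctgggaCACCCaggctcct
The AP-1 motif began 63 bases before the start of Mmp10, 35 before that of Mmp13, 44 before the Mmp12 start shown and 46 before that of Mmp3. The table lists a second promoter of Mmp12 at chr9:7344147-7344446, which has no AP-1 motif and holds 1 CACCC box. The Mmp12 start shown was chosen because its promoter holds the AP-1 motif. The Mmp14 promoter held CACCC boxes and no AP-1 motif in this window. A match describes the sequence and does not show that a factor binds there.

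The values are log2 intensities after normalization by Robust Multi-Array (RMA), with a correlation of 0.992 to 0.995 between replicates across genes. Klf4 itself measured 7.43 and 7.24 in siKlf4 + TGFβ and 7.46 and 7.46 in siControl + TGFβ, and 8.03 and 7.91 in siKlf4 against 8.60 and 8.43 in siControl. It was lower without TGFβ (log2 difference -0.54, adjusted p = 0.00369), but with TGFβ the difference of -0.13 (95% CI -0.35 to 0.10) was not called. Under TGFβ, Klf4 fell by 0.63 in siKlf4 (adjusted p = 0.00295) and fell by 1.05 in siControl (adjusted p = 3.6e-04), so siKlf4 + TGFβ was compared with cells whose Klf4 was already lower. For the arrays with TGFβ, Klf4 itself therefore gives no check of the siRNA labels. Of the markers listed for each cell type, 12 of 15 epithelial genes were above the background level defined below, among them Cdh1, Krt8 and Krt18, while Epcam and Esrp1 were under it. Only 4 of 8 fibroblast, 4 of 10 macrophage and leukocyte and 3 of 7 endothelial markers exceeded it. In arrays of a cell population, fewer expressing cells and less RNA per cell cannot be told apart.

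The files give no detection call, so background was read from 1194 olfactory and vomeronasal receptor genes, which mammary epithelium is not known to express. Their median was 3.13, and a gene was called bright when its mean over the 8 arrays exceeded their 95th percentile, 4.33. By this measure 33 of the 77 genes (42.9%) were bright, against 67.2% of all genes. The bright genes were 11 of 22 Mmp, 14 of 18 Adamts, 2 of 4 Timp and 6 of 33 Adam genes. The 22 ADAMs of the testis and other ADAMs lay at 2.74 to 4.10 and none was bright. Adamts18 at 4.37 was the last gene above the level and Adamts20 at 4.31 the first below it. Of the 44 genes near background, 4 had at least 1 group mean above the level, namely Mmp12, Timp3, Adamts20 and Adamts12. Levels of different genes come from different probes and are not set against each other here.

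**Figure D1:**
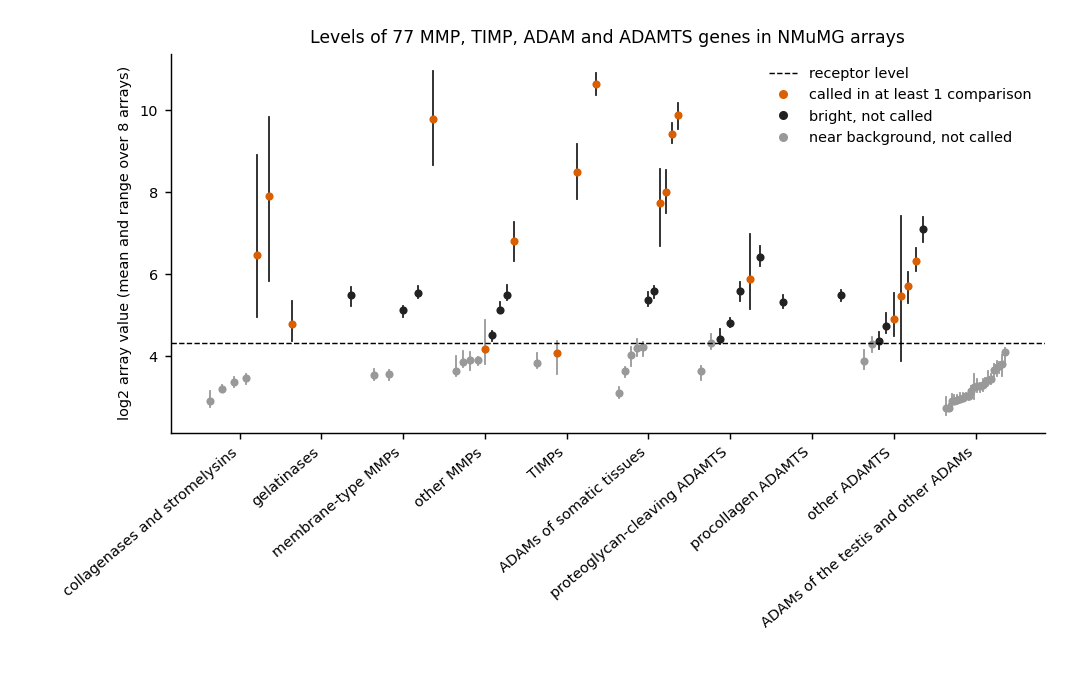
Each point is the mean log2 value of 1 gene over the 8 arrays and each line its range, by class along the horizontal axis, and the dashed line is the receptor level of 4.33. The longest lines belong to Mmp13, Mmp10 and Adamts6, and the ADAMs of the testis all lie under the dashed line.

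The siKlf4 comparisons ask which of these genes differ under Klf4 siRNA before and during TGFβ treatment. With TGFβ, 14 of the 77 genes were higher in siKlf4 than in siControl and 1 was lower, while 12.3% and 11.9% of all genes were called higher and lower. Without TGFβ, 13 genes were higher and 1 was lower, against 9.98% and 9.71% of all genes. The median difference of the 77 genes was 0.02 with TGFβ and 0.07 without it, and that of all genes was -0.03 with TGFβ and 0.00 without it. Both comparisons use different arrays and share only the estimate of the spread. In both, 11 genes were higher, namely Adamts6, Mmp10, Mmp14, Adam8, Adamts4, Timp1, Mmp11, Adamts7, Timp2, Adam15 and Adam10, and Mmp13 alone was lower. Across the 77 genes the differences without and with TGFβ had a Pearson r of 0.876, a description across genes that are not independent. TGFβ raised 4 and lowered 1 of the genes in siControl (5.81% and 6.65% of all genes) and raised 7 and lowered 2 in siKlf4 (6.01% and 6.87%). Each TGFβ comparison shares its arrays with the siKlf4 comparisons. Leaving out 1 array changed the smaller counts: without TGFβ there were 8 genes higher and 2 lower in siKlf4 when siControl replicate 1 was left out. With TGFβ there were 2 lower when any 1 array without TGFβ was left out. TGFβ in siControl had 2 genes higher without any 1 array with TGFβ and 2 lower without siControl replicate 2. By the F test of limma over the 4 groups, 19 of the 77 genes and 33.3% of all genes differed in some way. These were the 18 genes called in at least 1 comparison and Adam26b, an ADAM near background (adjusted p = 0.0470).

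**Figure D2:**
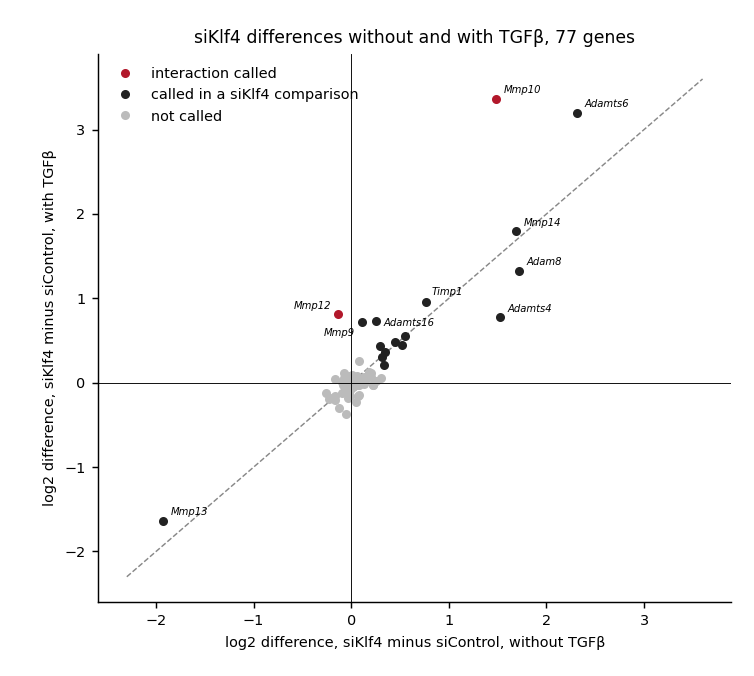
The log2 difference between siKlf4 and siControl without TGFβ (horizontal) is plotted against that with TGFβ (vertical) for the 77 genes, with the line of equal differences dashed. Mmp10 at 3.36 with TGFβ and 1.48 without it and Mmp12 at 0.81 and -0.13 lie above the line, and Mmp13 is the only called gene in the lower left.

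Among the collagenases and stromelysins, Mmp10 and Mmp13 were bright and moved in opposite directions under Klf4 siRNA. Mmp10 (probe set 10583090), a stromelysin that cuts many matrix proteins and activates procollagenases, measured 8.86 and 8.90 in siKlf4 + TGFβ against 5.60 and 5.43 in siControl + TGFβ. Without TGFβ it measured 6.29 and 6.70 in siKlf4 against 5.05 and 4.96 in siControl. The groups did not overlap, and the combination of Klf4 siRNA and TGFβ stood apart from the other 3 groups. The gene was 10.3-fold higher in siKlf4 with TGFβ (log2 difference 3.36 ± 0.13 SE, adjusted p = 4.9e-07) and 2.80-fold higher without it (1.48 ± 0.13, adjusted p = 5.3e-05). TGFβ raised it by 2.39 in siKlf4 (adjusted p = 2.6e-05) and by 0.51 in siControl (adjusted p = 0.0349). The increase in siControl was no longer called when any 1 array was left out except those of siKlf4 without TGFβ (adjusted p 0.063 to 0.214), nor after quantile normalization (0.0512).

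Mmp13 (probe set 10583044), a collagenase that cuts fibrillar collagen, measured 8.22 and 8.11 in siKlf4 + TGFβ against 9.83 and 9.77 in siControl + TGFβ. In untreated cells it measured 5.91 and 5.85 in siKlf4 against 7.89 and 7.73 in siControl. It was thus lowest after Klf4 siRNA alone and highest after TGFβ with control siRNA, and the 4 groups were apart. The gene fell by 1.63 on the log2 scale in siKlf4 with TGFβ (± 0.09 SE, adjusted p = 2.1e-06) and fell by 1.93 without it (± 0.09, adjusted p = 1.7e-06). TGFβ raised it in both backgrounds, by 2.29 in siKlf4 (adjusted p = 1.1e-05) and by 1.99 in siControl (adjusted p = 2.3e-05). The siKlf4 differences with and without TGFβ were not shown to differ (0.29, 95% CI 0.01 to 0.58, adjusted p = 0.393). The interstitial collagenases Mmp1a, Mmp1b and Mmp8 and the stromelysin Mmp3, neighbours of Mmp10 and Mmp13 in the cluster on chromosome 9, had means of 2.91 to 3.47 and were called in no comparison.

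**Figure D3:**
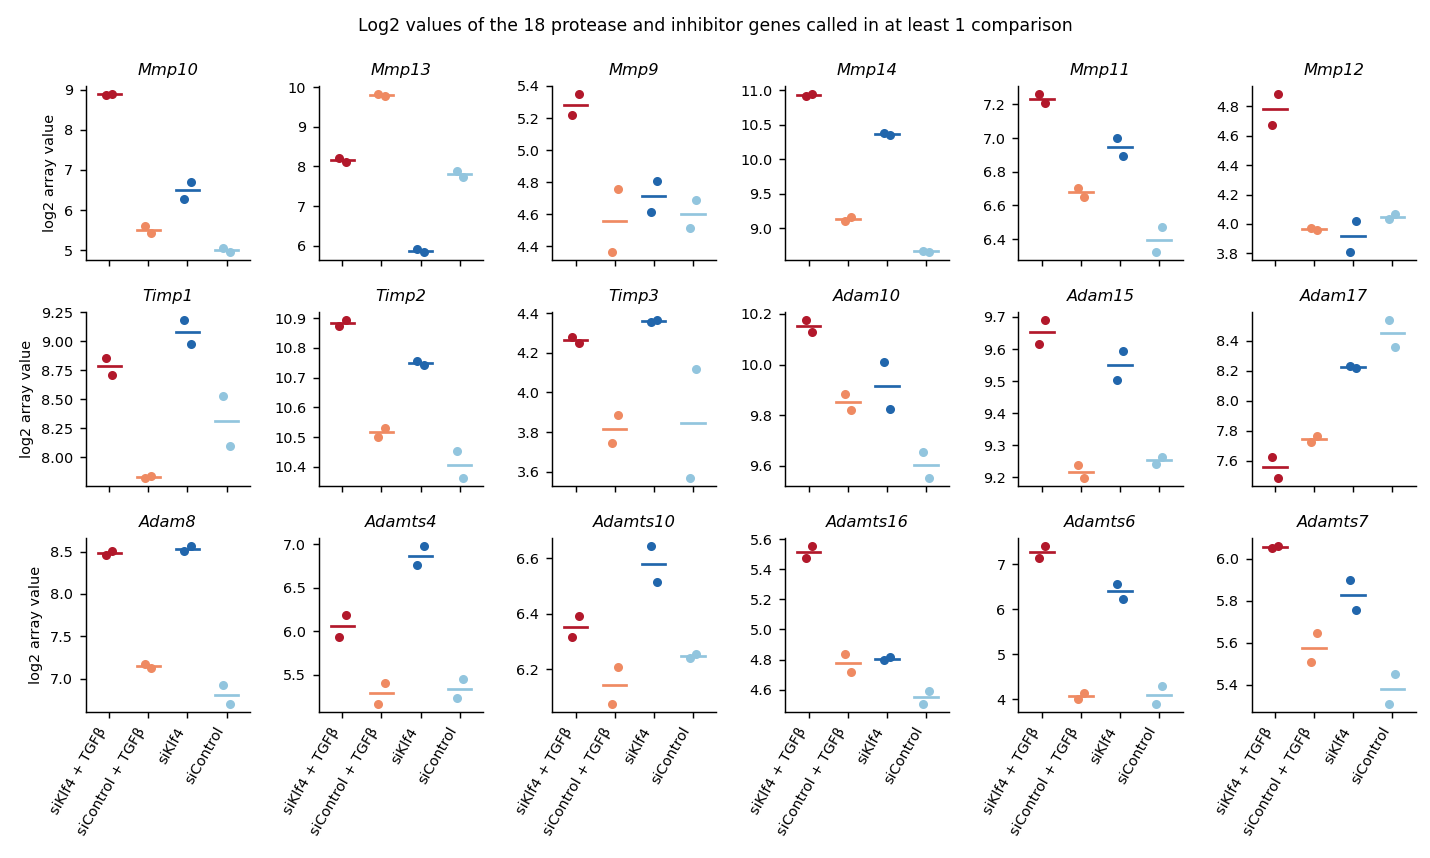
The log2 value of each array (points) and the group mean (lines) are plotted for the 18 genes called in at least 1 comparison, with a vertical scale of its own for each gene. Both siKlf4 groups lie above both siControl groups in Mmp14, Adam8, Adamts6 and Timp2, and Mmp10 is highest in siKlf4 + TGFβ at 8.86 and 8.90.

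Mmp14 (probe set 10415052), the membrane-type MMP that cuts collagen at the cell surface and activates the proform of Mmp2, was higher in both siKlf4 groups. It measured 10.91 and 10.95 in siKlf4 + TGFβ against 9.11 and 9.16 in siControl + TGFβ, and 10.37 and 10.34 in siKlf4 against 8.67 and 8.66 in siControl. Replicates lay close together and no groups overlapped. The gene was higher in siKlf4 by 1.80 with TGFβ (3.47-fold, adjusted p = 6.8e-07) and by 1.69 without it (3.23-fold, adjusted p = 1.4e-06). TGFβ raised it by 0.57 in siKlf4 (adjusted p = 0.00111) and by 0.47 in siControl (adjusted p = 0.00391). The other membrane-type genes showed no called change. Mmp24 and Mmp17 were bright, with differences between siKlf4 and siControl of -0.02 to 0.12, and Mmp16 and Mmp25 lay near background.

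The gelatinases Mmp2 and Mmp9, which cut denatured collagen and the collagen of basement membranes, did not move together. Mmp9 measured 5.22 and 5.35 in siKlf4 + TGFβ against 4.36 and 4.76 in siControl + TGFβ, and 4.61 and 4.81 in siKlf4 against 4.51 and 4.69 in siControl. The siKlf4 + TGFβ arrays were above the other 6, which overlapped. Mmp9 was higher by 0.72 in siKlf4 with TGFβ (adjusted p = 0.00378), and TGFβ raised it by 0.57 in siKlf4 (adjusted p = 0.0246). Its difference of 0.11 without TGFβ (95% CI -0.20 to 0.42) was not called, and the difference between the siKlf4 effects (0.61, adjusted p = 0.21) did not pass the test. The TGFβ call in siKlf4 was lost without siKlf4 replicate 1 (adjusted p = 0.12), siKlf4 + TGFβ replicate 1 (0.0779) or siKlf4 + TGFβ replicate 2 (0.166). Mmp2, the substrate of Mmp14, measured 5.63 and 5.41 in siKlf4 + TGFβ, 5.68 and 5.69 in siControl + TGFβ, 5.23 and 5.54 in siKlf4 and 5.23 and 5.55 in siControl. No comparison called it, with intervals of -0.47 to 0.16 for siKlf4 with TGFβ and -0.32 to 0.30 without it.

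Of the remaining MMPs, Mmp11 and Mmp12 moved. Mmp11, a stromelysin whose proform is cut by furin inside the cell, measured 7.26 and 7.21 in siKlf4 + TGFβ against 6.70 and 6.65 in siControl + TGFβ, and 7.00 and 6.90 in siKlf4 against 6.32 and 6.47 in siControl. It was higher in siKlf4 by 0.56 with TGFβ (adjusted p = 0.00116) and by 0.55 without it (adjusted p = 0.00161), and the groups did not overlap. TGFβ gave 0.29 in siKlf4 and 0.28 in siControl, neither called. Both were called when genes at or below the receptor level were left out (adjusted p = 0.0366 and 0.0418). They were also called without the dimmest 30% of genes (0.0397 and 0.0450), and that in siKlf4 after quantile normalization (0.0348). Mmp12, known as macrophage elastase, was near background in 3 of the groups. It measured 4.67 and 4.88 in siKlf4 + TGFβ, the only arrays above the receptor level, against 3.97 and 3.96 in siControl + TGFβ. Without TGFβ it measured 3.81 and 4.02 in siKlf4 against 4.03 and 4.07 in siControl. Mmp12 was higher by 0.81 in siKlf4 with TGFβ (adjusted p = 3.2e-04), and TGFβ raised it by 0.86 in siKlf4 (adjusted p = 6.7e-04). The macrophage and leukocyte markers had a mean log2 value per array of 4.81 to 4.83 in siKlf4 + TGFβ, 4.71 to 4.72 in siControl + TGFβ, 4.91 to 4.95 in siKlf4 and 4.84 to 4.86 in siControl. Their defining genes Ptprc (mean 3.74) and Adgre1 (3.64) were near background, whereas Csf1r was higher in siKlf4 by 1.00 with TGFβ and by 0.38 without it. Like Mmp12, Csf1r rose under TGFβ in siKlf4, by 0.84 (adjusted p = 1.9e-04), and had a called interaction of 0.62 (adjusted p = 0.0307). Of the 10 markers measured, 1 was called higher and 1 lower under TGFβ in siKlf4, with differences of -1.09 to 0.84. In siControl, 0 were called higher and 2 lower under TGFβ, with differences of -1.30 to 0.22. Between siKlf4 and siControl, 2 markers were called higher with TGFβ and 1 without it, and 0 lower. Over all genes, TGFβ had 6.01% called higher and 6.87% lower in siKlf4, and 5.81% and 6.65% in siControl. For siKlf4 against siControl these shares were 12.3% and 11.9% with TGFβ and 9.98% and 9.71% without it. The part of macrophages and leukocytes in the Mmp12 values was not tested. Mmp28, Mmp19 and Mmp23 were bright and called in no comparison, and Mmp7, Mmp20, Mmp21 and Mmp27 were near background.

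The bright inhibitors Timp1 and Timp2 were higher with Klf4 siRNA, and Timp3, near background, was called higher only without TGFβ. Timp1, a soluble inhibitor of most secreted MMPs, measured 8.86 and 8.71 in siKlf4 + TGFβ against 7.82 and 7.84 in siControl + TGFβ, and 9.18 and 8.98 in siKlf4 against 8.53 and 8.10 in siControl. All siKlf4 arrays were above all siControl arrays, by 0.95 on average with TGFβ (1.94-fold, adjusted p = 8.3e-04) and by 0.77 without it (1.70-fold, adjusted p = 0.00379). TGFβ gave -0.30 in siKlf4 and -0.48 in siControl, neither of them called (adjusted p = 0.246 and 0.0549). The difference in siControl was called with trend and robust moderation (adjusted p = 0.00859) and with the replicate number as a block (0.0255). It was also called after quantile (0.0432) or cyclic loess normalization (0.0477). Leaving out genes at or below the receptor level (0.0409) or the dimmest 30% of genes (0.0429) gave the call too. Without siControl replicate 2 the TGFβ difference in siControl was -0.70 and called (adjusted p = 0.0113). Timp2, which inhibits MMPs and also takes part with Mmp14 in activating the proform of Mmp2, measured 10.88 and 10.89 in siKlf4 + TGFβ against 10.50 and 10.53 in siControl + TGFβ, and 10.76 and 10.74 in siKlf4 against 10.45 and 10.36 in siControl. The groups were apart, but the size was small, at 0.37 with TGFβ (adjusted p = 0.00631) and 0.34 without it (adjusted p = 0.0113). The first call was lost without siControl + TGFβ replicate 1 (adjusted p = 0.0551) or siKlf4 + TGFβ replicate 2 (0.052). The second was lost without siControl replicate 2 (0.0604) or in a fit of only the 4 arrays compared (0.0666).

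Timp3, a matrix-bound inhibitor that also blocks Adam17, was near background at 4.28 and 4.25 in siKlf4 + TGFβ against 3.74 and 3.89 in siControl + TGFβ, and 4.36 and 4.37 in siKlf4 against 3.57 and 4.12 in siControl. The difference without TGFβ was 0.52 (adjusted p = 0.0433), and that of 0.45 with TGFβ (adjusted p = 0.0657) was not called. The call without TGFβ rested on the spread of single arrays. The difference was 0.24 without siControl replicate 1 (adjusted p = 0.158) and 0.80 without siControl replicate 2, which kept the call, and no other array could be left out without losing it (0.062 to 0.14). With TGFβ the difference was called when siControl replicate 1 or 2 was left out (adjusted p = 0.00429), with only the 4 arrays compared (0.00528), after cyclic loess (0.0201) or quantile normalization (0.0222), with trend and robust moderation (0.0387) and with the replicate block (0.0492). Timp4 was near background, at 3.70 to 4.07, and called in no comparison.

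Of the 11 ADAMs expressed in somatic tissues, 6 were bright and 4 of these moved. Adam8, a metalloprotease and disintegrin best known from leukocytes, measured 8.46 and 8.51 in siKlf4 + TGFβ against 7.18 and 7.13 in siControl + TGFβ, and 8.50 and 8.56 in siKlf4 against 6.93 and 6.70 in siControl. The leukocyte markers had the levels given beside Mmp12, and the part of such cells in the Adam8 values was not tested. The siKlf4 arrays of Adam8 lay close together whatever the treatment and far above the siControl arrays. The gene was higher by 1.33 with TGFβ (2.51-fold, adjusted p = 8.5e-06) and by 1.72 without it (3.30-fold, adjusted p = 3.5e-06). TGFβ raised it by 0.34 in siControl (adjusted p = 0.0447), and in siKlf4 the difference was -0.05 (95% CI -0.26 to 0.16). The call in siControl was kept without siControl replicate 1 but lost without any other array (adjusted p 0.0538 to 0.219), with the difference at 0.23 without siControl replicate 2. It was also lost in a fit of only the 4 arrays compared (0.102).

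Adam10 and Adam17 are the main sheddases of Notch, cadherins and growth factor precursors. Adam10 measured 10.18 and 10.13 in siKlf4 + TGFβ against 9.88 and 9.82 in siControl + TGFβ, and 10.01 and 9.82 in siKlf4 against 9.65 and 9.55 in siControl. It was higher in siKlf4 by 0.30 with TGFβ (adjusted p = 0.0381) and by 0.31 without it (adjusted p = 0.038). TGFβ gave 0.24 in siKlf4 (adjusted p = 0.142) and 0.25 in siControl (adjusted p = 0.122), neither called, though both were with trend and robust moderation (0.0227 and 0.0180). The call with TGFβ was lost without any 1 of the arrays that had TGFβ (adjusted p 0.108 to 0.194). The call without TGFβ was kept only without siKlf4 replicate 2 and lost without any other array (0.0577 to 0.175), as well as in a fit of only the 4 arrays compared (0.126). Adam17, the enzyme that releases TNF from the cell surface, measured 7.63 and 7.48 in siKlf4 + TGFβ and 7.73 and 7.77 in siControl + TGFβ, and 8.23 and 8.22 in siKlf4 and 8.54 and 8.36 in siControl. All arrays with TGFβ were below all arrays without it. The gene fell by 0.67 on the log2 scale under TGFβ in siKlf4 (adjusted p = 0.00141) and fell by 0.70 in siControl (adjusted p = 0.00145). The differences between siKlf4 and siControl, -0.19 with TGFβ (95% CI -0.40 to 0.02) and -0.22 without it (95% CI -0.43 to -0.02), did not pass the adjusted threshold. Adam15, an ADAM whose disintegrin domain binds integrins, measured 9.61 and 9.69 in siKlf4 + TGFβ against 9.24 and 9.20 in siControl + TGFβ, and 9.50 and 9.59 in siKlf4 against 9.24 and 9.26 in siControl. It was higher in siKlf4 by 0.44 with TGFβ (adjusted p = 0.0029) and by 0.30 without it (adjusted p = 0.0263). The call without TGFβ was lost without siControl replicate 1 (adjusted p = 0.0894) or 2 (0.0703), siKlf4 replicate 2 (0.122) or either siControl + TGFβ replicate (0.0518), and in a fit of only the 4 arrays compared (0.109). Adam11 and Adam33 were bright and called in no comparison. Adam12 and Adam19, both known from mesenchymal cells, averaged 4.22 and 4.20 and were not called.

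**Figure D4:**
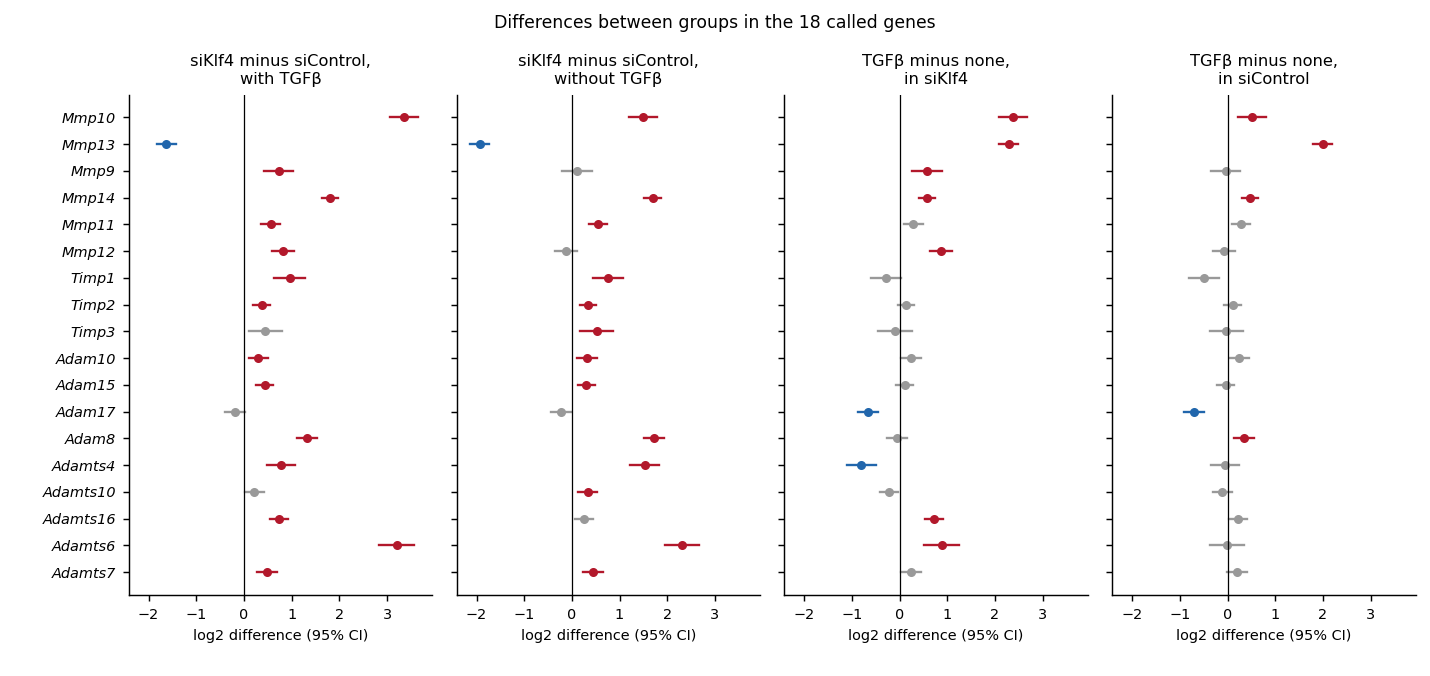
Points are log2 differences from limma and bars their 95% confidence intervals for the 18 genes called in at least 1 comparison, in 4 panels by comparison, with genes called higher in red, lower in blue and not called in grey. Adamts6 at 3.20 and Mmp10 at 3.36 are the farthest right in siKlf4 with TGFβ, and Adam17 is left of 0 in both TGFβ panels at -0.67 in siKlf4 and -0.70 in siControl.

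Among the ADAMTS proteases that cut proteoglycans, only Adamts4 was called. This aggrecanase measured 5.93 and 6.19 in siKlf4 + TGFβ against 5.16 and 5.41 in siControl + TGFβ, and 6.76 and 6.98 in siKlf4 against 5.24 and 5.45 in siControl. The siKlf4 arrays without TGFβ were the highest, and the siControl arrays with and without TGFβ overlapped. Adamts4 was higher in siKlf4 by 0.77 with TGFβ (1.71-fold, adjusted p = 0.00213) and by 1.52 without it (2.88-fold, adjusted p = 5.1e-05). It fell by 0.81 under TGFβ in siKlf4 (adjusted p = 0.00393), and in siControl the difference was -0.06 (95% CI -0.36 to 0.24). The test of the difference between these effects gave -0.75 (adjusted p = 0.106), which became a call with the replicate number as a block (0.0218). Adamts1, Adamts8, Adamts9 and Adamts15 were bright and not called. Adamts9, which cuts versican, had differences of -0.30 with TGFβ and -0.12 without it. It was called with TGFβ without siControl replicate 1 or 2 (adjusted p = 0.033), and without TGFβ at -0.37 without siControl replicate 1 (0.0436).

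Adamts6 (probe set 10406982), a relative of Adamts10, had the largest siKlf4 difference of the 77 genes without TGFβ. It measured 7.15 and 7.41 in siKlf4 + TGFβ against 4.01 and 4.15 in siControl + TGFβ, and 6.57 and 6.23 in siKlf4 against 3.89 and 4.29 in siControl. All siControl arrays were under the receptor level of 4.33 and all siKlf4 arrays were well above it. The gene was 9.19-fold higher in siKlf4 with TGFβ (log2 difference 3.20 ± 0.16 SE, adjusted p = 1.4e-06) and 4.96-fold higher without it (2.31 ± 0.16, adjusted p = 1.4e-05). Since siControl was at background, these folds may understate the difference. TGFβ raised it by 0.88 in siKlf4 (adjusted p = 0.00674) and gave -0.01 in siControl (95% CI -0.37 to 0.35), and the difference between these effects was 0.89 (adjusted p = 0.112). The increase with TGFβ in siKlf4 was lost without siKlf4 replicate 2 (adjusted p = 0.0507) or siKlf4 + TGFβ replicate 2 (0.0677). Adamts10, which binds the fibrillin of microfibrils, measured 6.31 and 6.39 in siKlf4 + TGFβ against 6.07 and 6.21 in siControl + TGFβ, and 6.64 and 6.51 in siKlf4 against 6.24 and 6.25 in siControl. It was higher by 0.33 without TGFβ (adjusted p = 0.0255), and the 0.21 with TGFβ was not called (adjusted p = 0.124). The call was lost without siControl replicate 1 (adjusted p = 0.086) or 2 (0.0752), siKlf4 replicate 1 (0.12) or in a fit of only the 4 arrays compared (0.0823).

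Adamts7, which cuts the cartilage protein COMP, measured 6.05 and 6.06 in siKlf4 + TGFβ against 5.51 and 5.64 in siControl + TGFβ, and 5.90 and 5.75 in siKlf4 against 5.31 and 5.45 in siControl. It was higher in siKlf4 by 0.48 with TGFβ (adjusted p = 0.00433) and by 0.45 without it (adjusted p = 0.00785), the call without TGFβ being lost without siControl replicate 1 (0.051). Adamts16 measured 5.48 and 5.55 in siKlf4 + TGFβ against 4.84 and 4.72 in siControl + TGFβ, and 4.80 and 4.81 in siKlf4 against 4.50 and 4.59 in siControl. The arrays with both Klf4 siRNA and TGFβ stood above the other 6. It was higher by 0.74 in siKlf4 with TGFβ (adjusted p = 1.7e-04), TGFβ raised it by 0.71 in siKlf4 (adjusted p = 6.4e-04), and the 0.26 between siKlf4 and siControl without TGFβ was not called (adjusted p = 0.063). This last difference was called when genes at or below the receptor level (adjusted p = 0.0361) or the dimmest 30% of genes (0.0390) were left out. Adamts13, Adamts17 and Adamts18 and the procollagen processing genes Adamts3 and Adamts14 were bright and not called. In Adamts3, Adamts9 and Adamts17, which had 16, 6 and 5 probe sets, no single probe set was called in any comparison.

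The interaction tests whether the difference between siKlf4 and siControl with TGFβ differed from that without it, in either direction. It was called higher for 2 of the 77 genes and lower for none, while 0.547% and 0.978% of all genes were called higher and lower. Mmp10 had an interaction of 1.88 on the log2 scale (95% CI 1.46 to 2.30, adjusted p = 0.00522), so its fold between siKlf4 and siControl was 3.68 times as large with TGFβ as without it. Mmp12 had 0.94 (95% CI 0.62 to 1.27, adjusted p = 0.0188), a call that was lost without siControl replicate 2 (0.0573) or without any 1 of the arrays with TGFβ (0.0543 to 0.0978), which leaves 1 gene called. The other called genes did not pass this test, with intervals of -0.13 to 0.34 for Mmp14, -0.26 to 0.64 for Timp1, -0.69 to -0.09 for Adam8 and 0.37 to 1.40 for Adamts6. In alternative fits Adamts6 passed after quantile normalization (adjusted p = 0.0427) and with trend and robust moderation (0.0409). Adamts16 passed after quantile (0.0401) and cyclic loess normalization (0.0488), and Adamts4 with the replicate block, as given above.

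No comparison called 59 of the 77 genes, of which 17 were bright and 42 near background. The matching share over all genes was not counted. The nearest measure is the F test over the 4 groups, which called 19 of the 77 genes and 33.3% of all genes. For the bright genes Mmp17, Mmp23, Mmp24 and Adamts8 every interval between siKlf4 and siControl lay within -0.29 to 0.34 on the log2 scale. Wider intervals were left by Mmp2, at -0.47 to 0.16 with TGFβ, and by Adamts17, at -0.06 to 0.57 without it. For Adamts17 without TGFβ, replicates 1 and 2 measured 7.04 and 7.39 in siKlf4 and 6.78 and 7.13 in siControl. Mmp2 was likewise higher in replicate 2 of both these groups. The fit does not pair replicates, so a shift shared by both groups counts as spread and widens the interval. For genes near background a difference cannot be separated from the absence of signal, and an uncalled difference there does not show that the transcript was unchanged.

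The genes that activate, bind or are cut by these proteases were counted in 5 lists. Of 27 activators and inhibitors measured, 8 were higher and 4 lower in siKlf4 with TGFβ, and 9 were higher and 2 lower without it. Over all genes the shares called higher and lower were 12.3% and 11.9% with TGFβ and 9.98% and 9.71% without it. Over the 13405 genes above the receptor level, where 20 of these 27 lie, 2373 were higher and 2233 lower with TGFβ and 1926 and 1862 without it. Furin, the proprotein convertase that activates Mmp11, Mmp14 and many ADAMs, was higher by 1.06 with TGFβ (adjusted p = 1.1e-05) and by 0.92 without it (4.1e-05). Itgb1 and Itgav, integrin subunits that can hold MMPs at the cell surface, were higher by 0.88 and 0.89 with TGFβ and by 0.90 and 0.72 without it. Papln, a secreted relative of the ADAMTS proteases without protease activity, fell by 0.90 with TGFβ and fell by 1.20 without it on the log2 scale. Reck, a membrane inhibitor of Mmp14 and Mmp9, was near background, with differences of -0.09 with TGFβ and -0.13 without it. Of 11 partners of Adam10 and Adam17, 5 were higher and 3 lower with TGFβ, and 6 were higher and 3 lower without it. All 3 genes that were lower were tetraspanins that bind Adam10. Tspan15 had -2.96 with TGFβ and -2.01 without it, with values of 6.58 and 6.50 in siKlf4 + TGFβ against 9.41 and 9.60 in siControl + TGFβ, and 7.11 and 7.10 in siKlf4 against 9.04 and 9.20 in siControl. Its interaction of -0.95 was called (adjusted p = 0.0147). Tspan33 and Tspan5 fell by 0.82 and 0.76 with TGFβ and fell by 0.94 and 0.77 without it. The integrin subunit Itga5, a partner of Adam17, was higher by 3.07 with TGFβ and by 3.42 without it (adjusted p = 4.5e-07 and 6.3e-07).

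**Figure D5:**
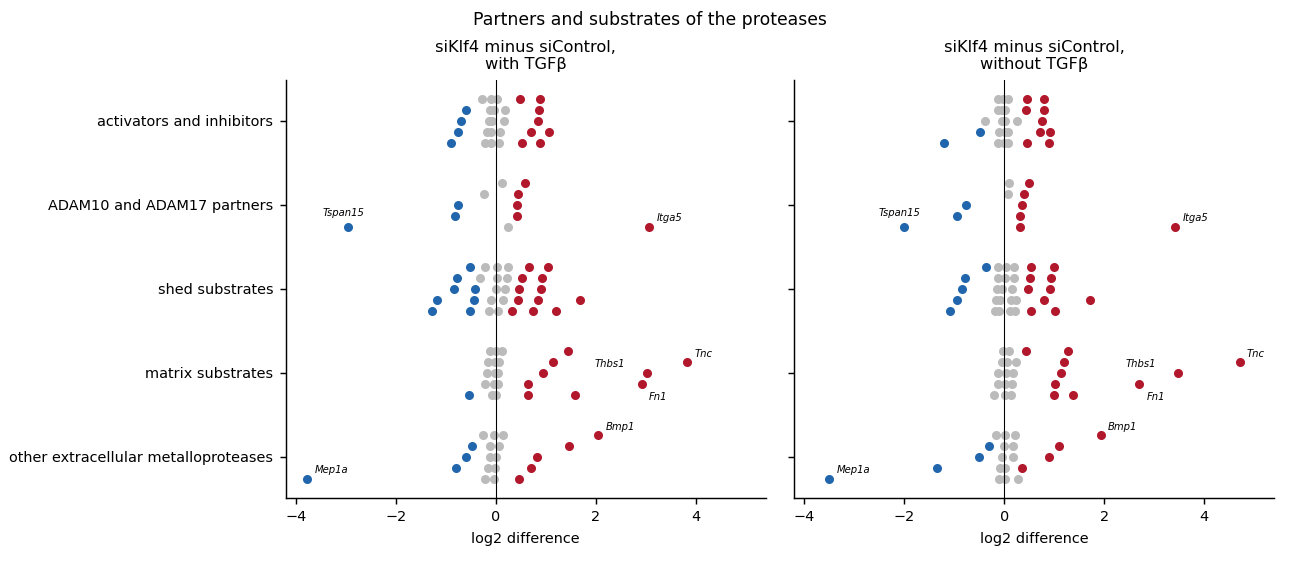
Each point is the log2 difference between siKlf4 and siControl of 1 gene of the 5 lists, with TGFβ on the left and without it on the right, with genes called higher in red, lower in blue and not called in grey. Matrix substrates reach to 4.71 for Tnc without TGFβ with a single gene called lower in the 2 panels, and the tetraspanin Tspan15 lies at -2.96 with TGFβ.

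Of 32 proteins shed by these enzymes, 12 genes were higher and 8 lower in siKlf4 with TGFβ, and 10 were higher and 5 lower without it. Of these, 29 were above the receptor level, and the shares over all genes are again 12.3% and 11.9% with TGFβ and 9.98% and 9.71% without it. Jag1, a Notch ligand cut by Adam10 and Adam17, was higher by 1.69 with TGFβ and by 1.71 without it, and Tnfrsf1b, the TNF receptor shed by Adam17, by 1.21 and 0.92. Alcam, an adhesion protein shed by Adam17, fell by 1.28 with TGFβ and fell by 0.85 without it. Vcam1, another such adhesion protein, had -1.17 with TGFβ (adjusted p = 8.3e-04) and 0.16 without it, with an interaction of -1.33 (adjusted p = 0.036). Cdh1, the E-cadherin cut by Adam10, had 0.22 and -0.19, neither called. Of 24 matrix substrates, 9 were higher and 1 lower with TGFβ, and 10 were higher and none lower without it. They were led by Tnc (3.84 with TGFβ and 4.71 without it), Thbs1 (3.02 and 3.48), Fn1 (2.93 and 2.70) and Lamb3 (1.59 and 1.03), whereas Col1a2 (-0.18 and -0.04) was not called. The median difference of the matrix list was 0.04 with TGFβ and 0.17 without it. Of 20 other extracellular metalloproteases, 5 were higher and 4 lower with TGFβ, and 4 were higher and 4 lower without it. Mep1a, a meprin that cuts matrix proteins and cytokines, measured 3.49 and 3.61 in siKlf4 + TGFβ against 7.22 and 7.43 in siControl + TGFβ, and 4.46 and 4.35 in siKlf4 against 8.06 and 7.75 in siControl. It had log2 differences of -3.77 with TGFβ and -3.50 without it (adjusted p = 2.6e-07 and 6.4e-07), and the groups compared did not overlap. Both siKlf4 groups lay under or close to the receptor level of 4.33, so these differences may understate the change. Bmp1, which processes procollagens, was higher by 2.05 with TGFβ and by 1.93 without it, and Ece1 by 1.46 and 1.09.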

How the data were processed

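RNA from 8 NMuMG samples in 4 groups was hybridized to Affymetrix whole-transcript arrays, and groups and replicate numbers were taken from the submitters' labels. The authors normalized the raw arrays by RMA, and the deposited values are log2 values with 1 value per probe set and array, the base being read from their range. The submitters' processing notes name oligo 1.14.0. RMA quantile-normalizes the arrays, so a shift common to most genes would be removed. Of 34760 probe sets, 21640 had 1 symbol in the platform annotation, and the probe set with the highest mean was kept for each of 19937 genes. The number of columns of other samples left out was 0.

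Differences were fitted in R 4.3.3 with limma 3.58.1, as 1 mean per group over the 8 arrays, moderated by eBayes without trend, with Benjamini-Hochberg adjustment over all genes and a threshold of 0.05, and adjusted p-values in the text come from this fit unless an alternative or a left-out array is named beside them. Residual and prior degrees of freedom were 4 and 4.93. The steps were tested on simulated data. Promoter sequences were read from a RefSeq table of build GRCm38.p6. Protein sequences and motifs were not used here.

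The text names Klf4, every TIMP, every bright gene of the family, every gene near background that was called, and up to 4 called and 2 uncalled genes of each list. Other genes near background, other cluster genes and genes gained under an alternative were named after their values were seen. The genes, lists and tests were chosen with earlier results of these data known. Alternatives were a replicate block, a fit of only the 4 arrays compared, trend and robust moderation, quantile or cyclic loess normalization, filters on dim genes, the mean of all probe sets, all probe sets (added after seeing the data), a threshold of 0.01, a fold of at least 1.5, an ordinary one-way F test, other background levels and leaving out each array.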

Additional observations from a re-analysis of the deposited data

Results flagged for a closer look

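The difference between siKlf4 and siControl itself differed between treatments for 2 genes, by the interaction test of limma. For Mmp10 the difference with TGFβ was larger by 1.88 on the log2 scale than that without it (adjusted p = 0.00522), and both siKlf4 + TGFβ arrays were above the other 6. For Mmp12 it was larger by 0.94 (adjusted p = 0.0188), on values near background in the other 3 groups.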

How the results depend on the processing

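The 45 differences called in single genes were each recomputed under 13 to 16 alternatives, which gave 710 recomputed differences in all. None changed sign, 61 lost the call and 32 of the 45 differences kept it in all of theirs. The threshold of 0.01, the fold of at least 1.5 and the fit of all probe sets were applied to counts only and are not in this tally. The filters on dim genes remove Mmp12 and Timp3, so these have no value there. Counts of genes moved more. For siKlf4 without TGFβ, the 13 higher became 8 with only the 4 arrays compared, 8 at an adjusted p under 0.01 and 6 at 1.5-fold, and ranged from 8 to 11 when each array was left out, with 8 without siControl replicate 1. The 1 lower became 2 with the replicate block (Adam26b gained) and ranged from 1 to 2, with 2 without siControl replicate 1 (Adamts9). For siKlf4 with TGFβ, the 14 higher became 9 at 1.5-fold, and the 1 lower became 3 with only the 4 arrays compared (Adamts9 and Mmp27), 2 after quantile or cyclic loess normalization (Mmp27), and ranged from 1 to 2, with 2 without either siControl replicate (Adamts9) or either siKlf4 replicate (Mmp27). For TGFβ in siControl, the 4 higher became 2 at an adjusted p under 0.01 and 1 at 1.5-fold, and ranged from 2 to 3, with 2 without any 1 array with TGFβ. The 1 lower became 2 (Timp1) with the replicate block, trend and robust options, quantile or cyclic loess normalization and both filters on dim genes, and ranged from 1 to 2, with 2 without siControl replicate 2. For the interaction, the 2 higher became 4 after quantile normalization (Adamts6 and Adamts16 gained) and 1 with both filters, which remove Mmp12, or at 0.01, and ranged from 1 to 2, with 1 without siControl replicate 2 or any 1 array with TGFβ. The 0 lower became 1 with the replicate block (Adamts4). TGFβ in siKlf4 kept 7 higher and 2 lower within 1.5 times under all alternatives. Where no cause is named, the cause was not tested. Deviations of same-numbered replicates correlated at 0.38 between siKlf4 and siControl without TGFβ and at -0.05 to 0.04 between the other pairs of groups. The numbers were therefore not taken to pair the samples across all 4 groups. Without TGFβ, siKlf4 and siControl did share part of their replicate variation. The replicate block fits 1 shift for all 4 groups and cannot take up a shift present only there. A paired fit of these 4 arrays was not run. With the replicate block, the increase of Adam8 under TGFβ in siControl also lost its call (adjusted p = 0.0522), and that of Timp3 in siKlf4 with TGFβ was gained (0.0492). The ordinary one-way F test called 15 genes against 19. The number of bright genes was 24 to 37 with other background levels, against 33. With 2 arrays per group and no detection call, small differences and genes near background are the least certain.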
